A study of Mus musculus with 12 samples.

Results

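The genes described here encode the subunits of voltage-gated calcium channels and voltage-gated sodium channels. They were taken from the array's gene table by symbol, as every gene whose single symbol starts with Cacna, Cacnb or Cacng, or with Scn followed by a digit. This gave 35 genes of the 19938 genes with a transcript cluster of their own, 24 for calcium channels and 11 for sodium channels. A transcript cluster is a set of probes that the array reads together as 1 transcript, and for each gene the cluster with the highest mean over all 12 arrays was used. The rule itself uses symbols and mean intensities over all mice.

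Septal gene expression was compared between 6 virgin mice and 6 mice nursing young (postpartum days 6 to 8), to find what differs in this brain region in the postpartum period. The groups differ at once in mating, pregnancy, parturition, lactation and contact with pups. The paper states that the differences combine these factors and are not those of maternal care or lactation alone. All 12 were adult females about 70 days old, of a line bred from outbred hsd:ICR mice for high maternal aggression, so the controls carried the selection too. Each lactating mouse had lived with a breeder male for 2 weeks and each virgin mouse with other females for as long, and all were housed singly afterwards. Virgin mice were taken outside proestrus, and which mouse was in which stage is not given. Each mouse gave 1 array, with no pooling of animals. The deposited tissue protocol names punches of the lateral septum, while the paper's methods describe the medial and lateral septum, and which of these the punches held cannot be told from the labels. The labels number the animals separately, so the spread within a group is the spread between mice.

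Voltage-gated calcium channels open when the membrane depolarizes, and the calcium that enters drives transmitter release, gene regulation and burst firing. Each is built on a pore subunit, named by its Cacna1 gene. The channels that open at high voltage add a beta subunit inside the cell and an alpha2delta subunit outside it, which T-type channels do not need, and the gamma family was named after a further subunit found in skeletal muscle. Voltage-gated sodium channels carry the rising phase of the action potential through a pore subunit that is joined by small beta subunits. In the septum, as elsewhere in the forebrain, such channels set how inhibitory projection neurons and pacemaking neurons fire.

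Promoter sequence is shown for the members that varied most between mice, Scn4b and Cacna2d3, and for Scn2b, the neighbour of Scn4b on the chromosome and a subunit of the same class, which varied little. Of the 35 genes, 27 have promoter entries in RefSeq (mouse build GRCm38.p6), with 37 promoters in all. The window of each entry runs from 250 bases before the transcription start to 50 bases after it. The 250 bases before the start are printed 5′ to 3′ on the gene's own strand, at chr14:29721865-29722114 (minus strand) for Cacna2d3, chr9:45138374-45138623 (plus strand) for Scn4b and chr9:45117626-45117875 (plus strand) for Scn2b. Capitals mark GGGCGG, the GC box, and CCAAT, the CCAAT box, either of them also where it is read on the other strand as CCGCCC or ATTGG.
Cacna2d3: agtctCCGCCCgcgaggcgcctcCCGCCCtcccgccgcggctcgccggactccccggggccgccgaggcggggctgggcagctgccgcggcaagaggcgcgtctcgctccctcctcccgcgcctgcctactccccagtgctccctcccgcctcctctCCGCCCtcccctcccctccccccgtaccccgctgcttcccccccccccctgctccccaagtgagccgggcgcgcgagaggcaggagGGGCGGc
Scn4b: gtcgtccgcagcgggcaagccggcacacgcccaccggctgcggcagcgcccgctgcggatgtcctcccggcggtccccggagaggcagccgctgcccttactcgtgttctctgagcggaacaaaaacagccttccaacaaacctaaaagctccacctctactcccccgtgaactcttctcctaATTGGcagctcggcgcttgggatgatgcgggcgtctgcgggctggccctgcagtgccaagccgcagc
Scn2b: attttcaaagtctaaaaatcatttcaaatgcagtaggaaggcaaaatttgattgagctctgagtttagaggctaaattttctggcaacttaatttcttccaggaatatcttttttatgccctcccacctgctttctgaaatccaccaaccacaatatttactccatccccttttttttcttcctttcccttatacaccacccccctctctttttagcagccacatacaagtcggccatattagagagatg

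Cacna2d3 has a G and C content of 81.3% over its whole window, with 41 CG dinucleotides, and 4 GC boxes before the start. Scn4b has a G and C content of 66.3%, with 26 CG dinucleotides and a single CCAAT box before the start. The Scn2b window is poor in both, at 38.3% and 2 CG dinucleotides, and holds neither box before the start. Over the 37 promoters the median G and C content was 57.3% against 52.7% over all 32851 promoters of the table, and the median number of CG dinucleotides was 11 against 7. A GC box on either strand occurred in 37.8% of the channel promoters and in 35.7% of all promoters of the same length. Also counted on either strand and anywhere in the window, the letters CCAAT occurred in 24.3% against 37.4%. Counted in the same way, TATAAA, the letters of the TATA box, occurred in 5.41% against 13.6%. Such matches describe the letters in the window and are not mapped sites.

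Septal markers exceeded the dim end of the array. All 9 markers of the lateral septum and all 6 of the medial septum had mean intensities above 187. This is the 95th percentile over 175 clusters of vomeronasal receptor genes, which have no known role in brain and stand here for the dim end. That level was also exceeded by 23916 of all 35556 clusters, all 7 striatal markers and 7 of 8 markers of cortex and hippocampus. Exceeding it therefore does not tell the septum from neighbouring tissue. Array medians were between 320 and 339. Values are intensities on a linear scale, and differences are on the log2 scale after 16 was added to each intensity, lactating minus virgin. They were tested with limma over all 35556 clusters, of which 7.95% had an unadjusted p under 0.05 and none an adjusted p under 0.05, the smallest adjusted p being 0.0715. Markers of neighbouring tissue varied between mice. The summed intensity of 7 striatal markers was between 27307 and 33088 in virgin mice and between 20579 and 33134 in lactating mice, with 0 of the 7 called. That of 8 markers of cortex and hippocampus was between 4392 and 6127 against 4432 and 11411, the highest in lactating mouse 4, with 1 of the 8 called, Nrn1, which was higher in lactating mice.

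The expression of channel subunit genes was close to equal in lactating and virgin mice. Only Cacng1, the gamma subunit first described in skeletal muscle channels, had an unadjusted p under 0.05, and it was lower in lactating mice. This is 1 of 35 genes, or 2.86%, where 7.95% of all clusters were called, 3.26% higher and 4.69% lower. The split of all calls depends on the scaling, with 41.0% of them higher here, 55.2% on linear intensities and 67.1% after subtraction of each array's median. Among clusters above the vomeronasal level the share was 7.72%. No channel gene was called at an unadjusted p under 0.0025, where 0.337% of all clusters were, and none had groups that did not overlap, as 0.394% of all clusters had. The median log2 difference of the 35 genes was 0.01, against -0.01 over all clusters. Of the fitted values 19 were above 0 and 16 below, from -0.27 for Scn4b to 0.06 for Cacna1i, and 32 lay within 0.1 of 0.

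The 95% interval of the difference lay inside a 1.2-fold change in either direction for 32 genes. The 3 others were Cacna1s, Cacna2d3 and Scn4b, whose lower ends were ratios of 0.826, 0.803 and 0.657 of lactating to virgin. The median SD within groups was 0.09 on the log2 scale for the channel genes and 0.11 for all clusters. A septum sample mixes many cells, so fewer cells of a type and less RNA per cell cannot be told apart in any value given here.

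**Figure D1:**
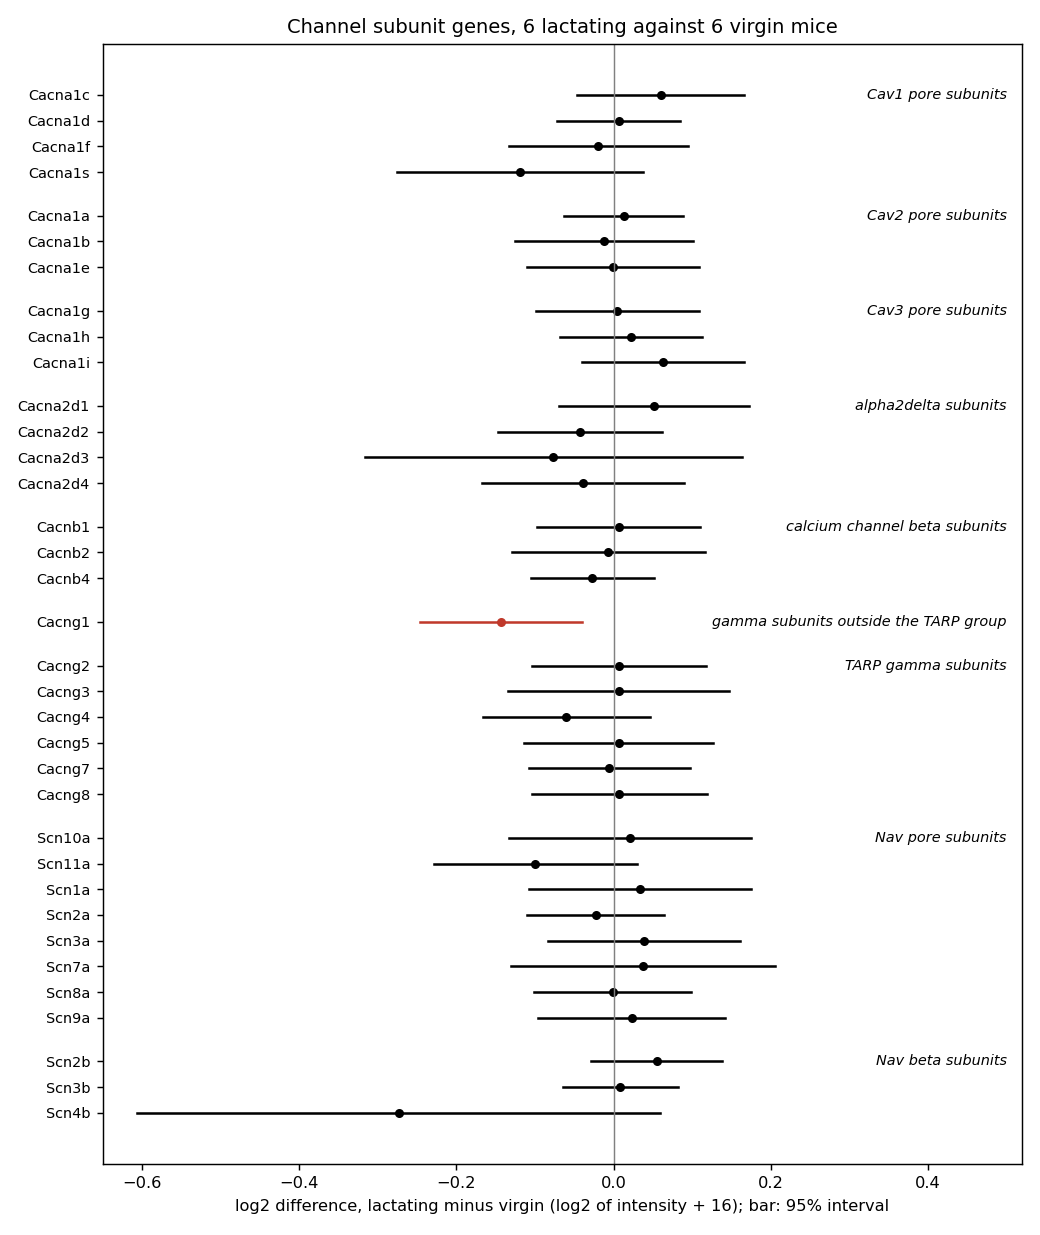
The log2 difference, lactating minus virgin, of each of the 35 channel genes (points) with its 95% interval (bars), grouped by subunit class; 6 mice a group. Only the interval of Cacng1, from -0.25 to -0.04, leaves out 0, and the widest is that of Scn4b, from -0.61 to 0.06.

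Cacng1 measured 434, 465, 407, 401, 424 and 460 in the 6 virgin mice, a mean of 432 ± 26.4 (SD, n = 6). In the 6 lactating mice it measured 399.6, 393, 374, 391, 417.5 and 361, a mean of 389 ± 19.6 (SD, n = 6). The groups overlapped through 1 lactating mouse, and the other 5 lay below every virgin mouse. Intensity fell by 9.83%, a log2 difference of -0.14 ± 0.05 (SE) with a 95% interval of -0.25 to -0.04. The unadjusted p was 0.0102 by limma and 0.0108 by the exact permutation test, two-sided, and the limma p adjusted over all clusters was 0.619, so the difference does not survive correction. The protein regulates the muscle calcium channel and, unlike its relatives at synapses, is not known as an AMPA receptor subunit. Of 7 skeletal muscle markers none was called, and their summed intensity was between 2450 and 2676 in virgin mice and between 2387 and 2628 in lactating mice. Of these markers 4 exceeded the vomeronasal level, and Mylpf, Myh4 and Myh1 did not. Of the 7, 6 had values below 0, as Cacng1 had, with a median difference of -0.06 over the 7. The other was Pvalb at 0.16, which is also a marker of medial septum neurons. The part of these markers in the Cacng1 value was not tested. Cacng1 is the only gamma gene outside the AMPA receptor group that was measured.

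The pore subunits of L-type channels, which couple depolarization to gene expression and pacemaking, showed differences within the spread between mice. Cacna1c, the main L-type pore of neurons and heart, measured from 935 to 1112 in the virgin group with a median of 981, and in the lactating group from 992 to 1122 with a median of 1036. The groups overlapped over most of their range, and the difference was 0.06 with a 95% interval of -0.05 to 0.17. Cacna1d, the L-type pore that opens at lower voltages, gave 0.01 and was among the steadiest genes, with a within-group SD of 0.05. Cacna1s, the skeletal muscle pore, gave -0.12 (unadjusted p = 0.124 by limma). Cacna1f, the retinal pore, gave -0.02 and did not exceed the vomeronasal level. None of the 4 was called, and their median was -0.01.

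Of the pores of presynaptic channels, which trigger transmitter release, none of 3 was called. Cacna1e, the R-type pore, measured between 3577 and 4099 in virgin mice, with a median of 3864, and between 3526 and 4102 in lactating mice, with a median of 3944. Its group means of 3858 and 3859 were nearly the same, and the 95% interval of the difference was -0.11 to 0.11. Cacna1a, the P/Q-type pore, gave 0.01 and Cacna1b, the N-type pore, gave -0.01.

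T-type channels open near rest and drive burst firing. Cacna1g measured from 1225 to 1425 in the virgin group (median 1366), and in the lactating group from 1246 to 1475 (median 1360), with a mean of 1353 ± 69.1 against 1358 ± 78.3 (SD, n = 6 each). Cacna1h gave 0.02 and Cacna1i 0.06, so that all 3 were above 0, and none was called. The 95% intervals of the 3 genes reached from -0.10 to 0.17 at their widest.

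Among the alpha2delta subunits, which carry calcium channels to the membrane, the genes differed in how much they varied between mice. Cacna2d2, which like Cacna2d1 encodes a target of the gabapentinoid drugs, was steady, between 3364 and 3894 in virgin mice with a median of 3730 and between 3360 and 3883 in lactating mice with a median of 3560, a difference of -0.04. Cacna2d3 was not, ranging from 1351 to 2021 in the virgin group (median 1574), and in the lactating group from 1263 to 1953 (median 1534). Its within-group SD was 0.21, a value higher than that of 87.9% of all clusters, and its difference was -0.08 with a 95% interval of -0.32 to 0.16. Cacna2d1 gave 0.05 in this cluster and 0.07 in a further cluster, and Cacna2d4 gave -0.04. None of the 4 was called.

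The beta subunits, which sit under the pore and control its gating and its passage to the membrane, had 0 of 3 called. Cacnb4, the subunit mutated in the lethargic mouse, measured between 5080 and 5462 in virgin mice (median 5135) and between 4891 and 5378 in lactating mice (median 5075). The difference was -0.03 with a 95% interval of -0.11 to 0.05. Cacnb1 and Cacnb2 gave 0.01 and -0.01.

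The other gamma genes encode the transmembrane AMPA receptor regulatory proteins, which bind these glutamate receptors and regulate them. Cacng3 measured from 3560 to 4413 in the virgin group (median 3759), and in the lactating group from 3528 to 4395 (median 3802), ranges that nearly coincide. Cacng2 (stargazin), Cacng5 and Cacng8 each gave 0.01, and Cacng7 gave -0.01. Cacng4 gave -0.06, with an unadjusted p of 0.241 by limma. Of its 6 lactating mice 3 lay below every virgin mouse and 1 lay above every virgin mouse. None of the 6 was called and their median was 0.01. The 4 AMPA receptor pore subunits they serve, Gria1 to Gria4, likewise had 0 called and a median of 0.01.

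**Figure D2:**
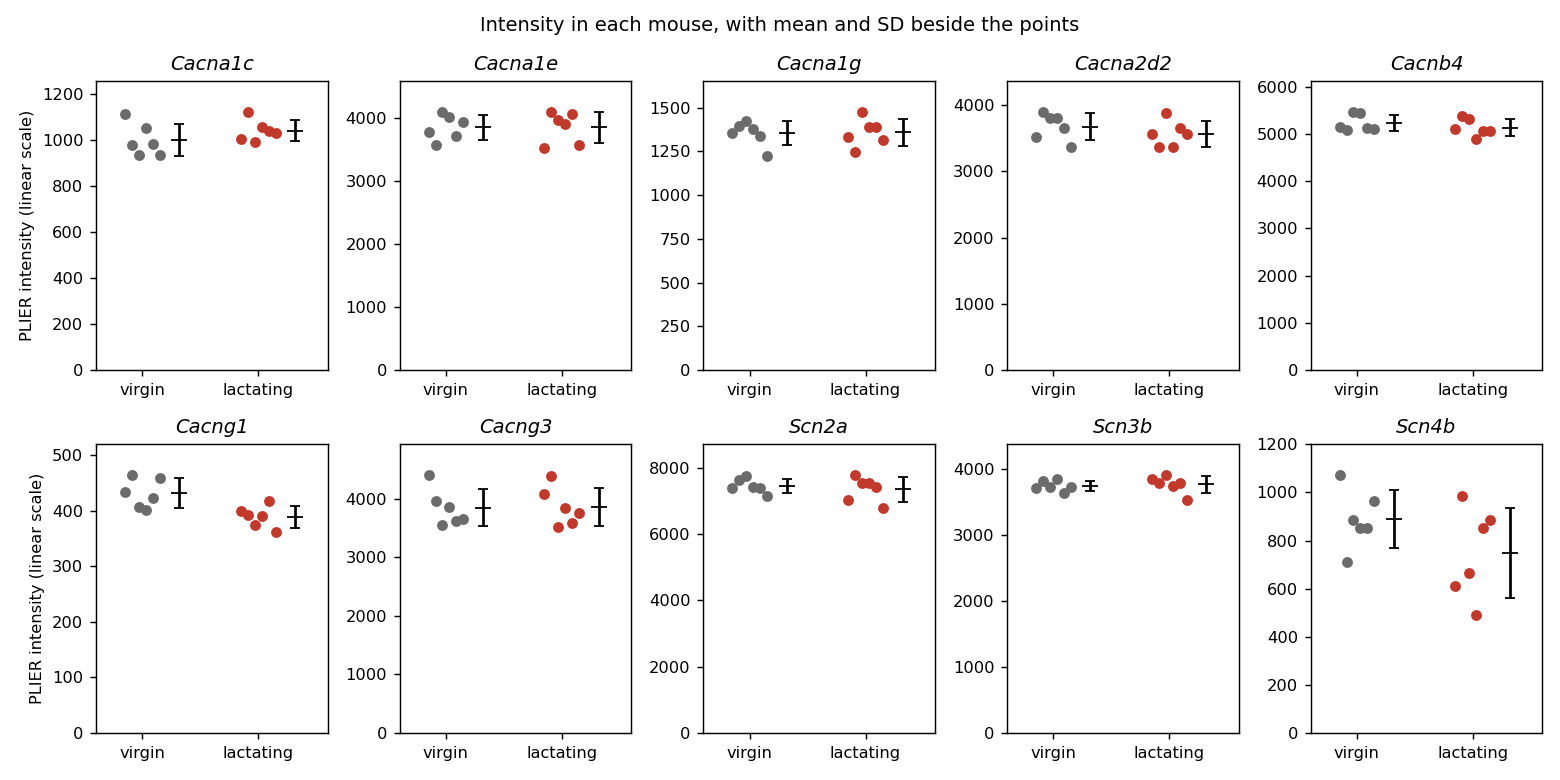
PLIER intensity (linear scale from 0) in each of 6 virgin and 6 lactating mice for the brightest gene of each subunit class and for Scn4b, and the group mean with its SD drawn next to them. The groups overlap in all 10 panels, and in Cacng1 5 of 6 lactating mice lie below every virgin mouse.

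Sodium channel pores make the axon excitable. Scn2a, a main pore of excitatory neurons and unmyelinated axons, measured between 7163 and 7772 in virgin mice with a median of 7412 and between 6780 and 7797 in lactating mice with a median of 7482. The virgin range lay inside the lactating range, and the difference was -0.02 with a 95% interval of -0.11 to 0.06. Scn1a, the pore prominent in fast-spiking inhibitory neurons, gave 0.03, and Scn8a, the main pore at the axon initial segment and nodes of Ranvier, gave -0.0013. Scn3a, most abundant before birth, gave 0.04, and Scn7a, a sodium sensor of glia in the circumventricular organs, gave 0.04. Of the pores best known from sensory neurons, Scn9a gave 0.02, Scn10a gave 0.02 without exceeding the vomeronasal level, and Scn11a gave -0.10 (unadjusted p = 0.120 by limma). None of the 8 was called and their median was 0.02.

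Scn2a also allows a check within 1 gene, because the array reads it with 14 clusters under this symbol. These clusters read 1 gene in the same mice, so they are not replicates. Their mean intensities ran from 1833 to 7411, and their differences from -0.03 to 0.08, with 8 above 0 and 6 below and a median of 0.02. None was called, and the smallest unadjusted p by limma was 0.18. The 95% intervals reached from -0.12 to 0.19 at their widest. The further clusters of Cacng2 and Scn9a gave 0.04 and 0.11 and were not called.

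**Figure D3:**
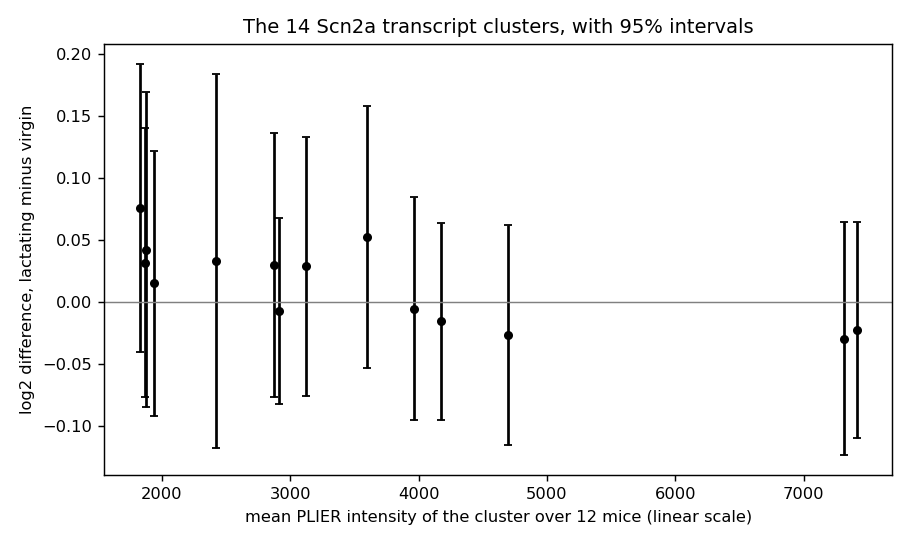
The log2 difference, lactating minus virgin, of each of the 14 Scn2a clusters (points, with 95% intervals) against the mean intensity of the cluster over 12 mice on a linear scale. Every interval holds 0, at mean intensities from 1833 to 7411.

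The sodium channel beta subunits tune gating and act as adhesion molecules, and they held both very steady and very variable genes. Scn3b measured from 3650 to 3853 in the virgin group (median 3735), and in the lactating group from 3530 to 3920 (median 3791), and its within-group SD of 0.04 was the lowest of the 35 genes. Scn2b measured from 3160 to 3549 (median 3370) in virgin mice and from 3360 to 3701 (median 3477) in lactating mice, a difference of 0.05 with a 95% interval of -0.03 to 0.14 (unadjusted p = 0.179 by limma).

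Scn4b, the subunit linked to resurgent sodium current and abundant in striatal projection neurons, measured 1074, 712, 886, 853, 854 and 965 in the virgin mice, a mean of 891 ± 121.5 (SD, n = 6). In the lactating mice it measured 611, 984, 667, 491, 854 and 887, a mean of 749 ± 189 (SD, n = 6). Lactating mice 1, 3 and 4 lay below every virgin mouse, and the other 3 lay within the virgin range. The difference was the largest of the 35 genes, -0.27 with a 95% interval of -0.61 to 0.06, and was not called (unadjusted p = 0.0992 and adjusted p = 0.635 by limma, exact permutation p = 0.143). Its within-group SD of 0.30 was higher than that of 94.8% of all clusters. Without lactating mouse 4 the difference was -0.16, and without lactating mouse 2 it was -0.36 (limma, unadjusted p = 0.0308).

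**Figure D4:**
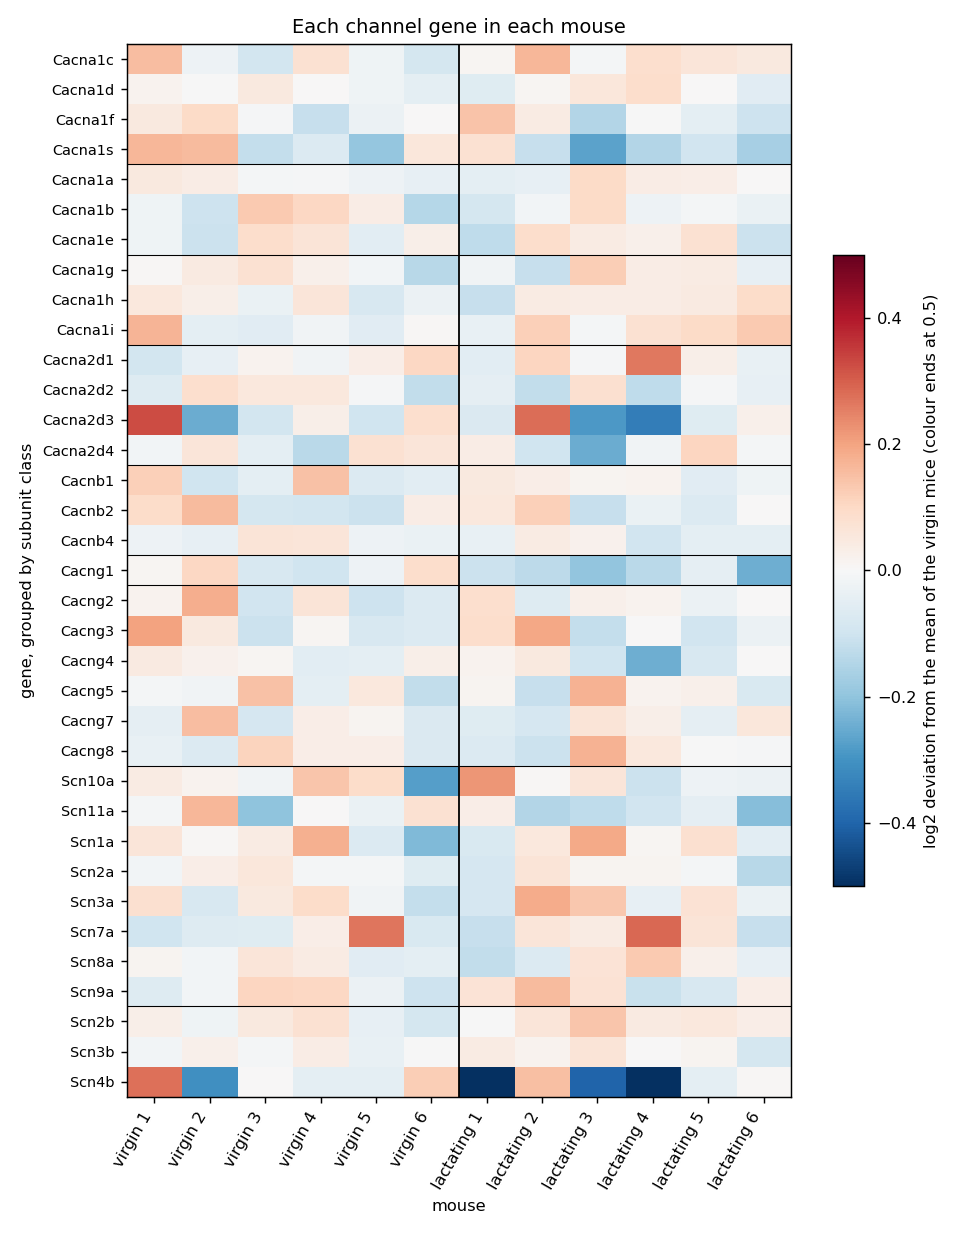
The log2 deviation of each channel gene (vertical axis, grouped by subunit class) from the mean of the virgin mice in each of the 12 mice (horizontal axis); the colour scale ends at 0.5, and Scn4b in lactating mice 1 and 4 lies beyond it. No mouse was the highest or the lowest of the 12 for more than 7 of the 35 genes, and Scn4b and Cacna2d3 vary most between mice in both groups.

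Scn4b and Cacna2d3, the members that varied most between mice, varied with markers of the striatum. For each of the 35 genes, log2 levels over the 12 mice were correlated with the mean level of the striatal markers and with that of the cortex and hippocampus markers, 70 relations in all. Permutation tests with Benjamini-Hochberg adjustment over the 70 gave 4 with an adjusted p under 0.05 for Pearson's r, 3 of them with the striatal markers, and only 1 for Spearman's rho, that of Cacna2d3. The mice share their arrays between both measures, and some striatal markers, such as Penk and Tac1, are also made in the septum.

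For Cacna2d3 and the striatal markers Pearson's r was 0.92 (permutation p = 2e-05, the smallest these permutations can give, adjusted p = 0.0014) and Spearman's rho 0.94 (permutation p = 2e-05, adjusted p = 0.0014). Without the 2 mice farthest out in marker level, lactating 2 and lactating 4, r was 0.96, and it was 0.98 within the virgin mice and 0.94 within the lactating mice. For Scn4b r was 0.89 (permutation p = 0.0001, adjusted p = 0.0035) and rho 0.78 (permutation p = 0.0045, adjusted p = 0.0762). Here r was 0.77 without the same 2 mice, 0.93 within the virgin mice and 0.86 within the lactating mice. Lactating mouse 1 lay off this relation: its striatal marker level of 0.01 was close to that of lactating mouse 6, also 0.01, while Scn4b measured 611 in the first and 887 in the second. Both genes were highest in virgin mouse 1, followed by lactating mouse 2, and lowest in lactating mouse 4.

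For Cacng4 r with the striatal markers was 0.87 (permutation p = 0.00055, adjusted p = 0.0096) and rho 0.75 (permutation p = 0.00706, adjusted p = 0.0824). Pearson's r was 0.61 without lactating 2 and lactating 4 and was 0.43 within the virgin mice and 0.94 within the lactating mice, so the relation over all 12 rests in part on those 2 mice. Cacna2d1 varied instead with the markers of cortex and hippocampus, with r at 0.91 (permutation p = 0.0002, adjusted p = 0.0047) and rho at 0.81 (permutation p = 0.00218, adjusted p = 0.0509). Without lactating 1 and lactating 4 r was 0.75, and it was 0.88 within the virgin mice and 0.92 within the lactating mice. By rho, negative relations came as close to the threshold. Scn10a, which did not exceed the vomeronasal level, had a rho of -0.81 with the same markers (permutation p = 0.00217, adjusted p = 0.0509). Cacna1g had a rho of -0.76 with the striatal markers (permutation p = 0.00544, adjusted p = 0.0762).

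The striatal marker level itself averaged 0.06 in virgin mice and -0.06 in lactating mice, as a mean log2 deviation, a difference that the exact permutation test did not call (p = 0.325). It ranged from -0.09 to 0.26 across the virgin group, while the lactating group spanned -0.48 to 0.28. The part of these markers in the difference of Scn4b between the groups was not tested.

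**Figure D5:**
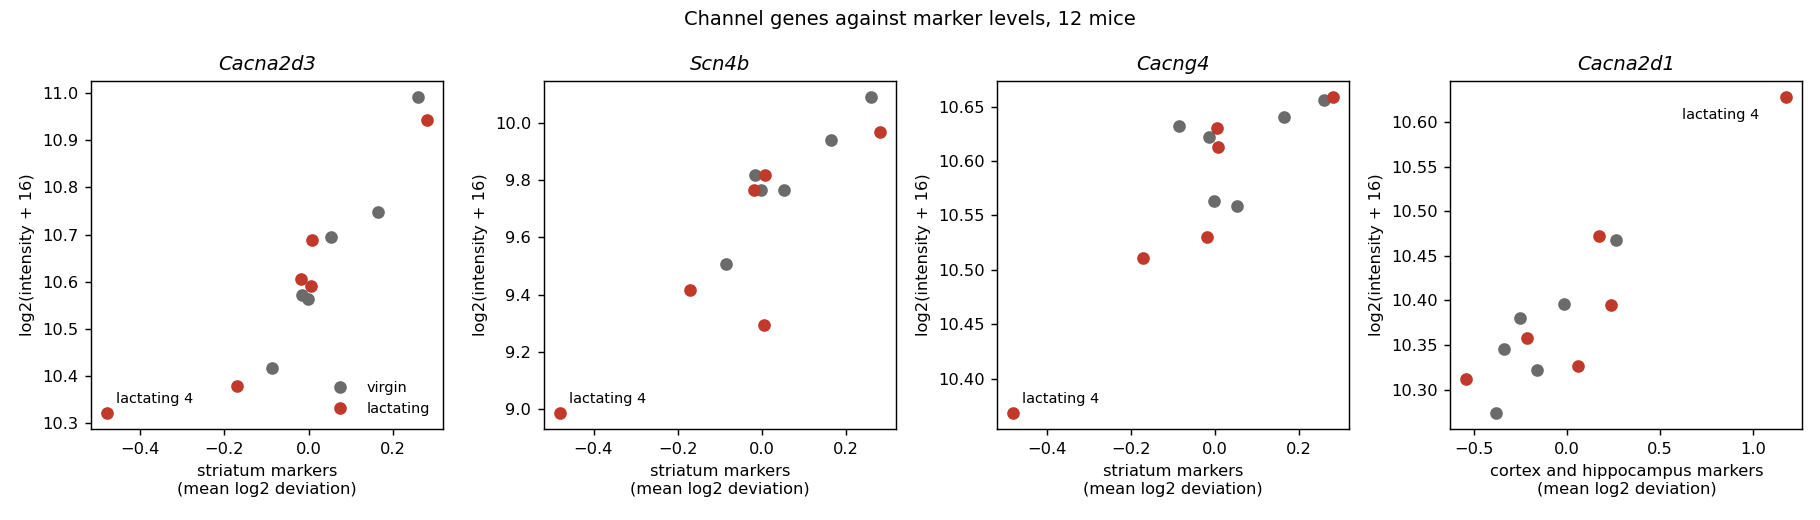
The log2 level of Cacna2d3, Scn4b, Cacng4 and Cacna2d1 (vertical axes) against the mean log2 deviation of striatal markers, or for Cacna2d1 of cortex and hippocampus markers (horizontal axes), 1 point a mouse. Levels rise with the markers for Cacna2d3 (r = 0.92) and Scn4b (r = 0.89), with lactating mouse 4 at the low end, and lactating mouse 1 lies below the other mice of like marker level for Scn4b.

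Genes of proteins that work with these channels or with the gamma subunits were also examined. The list also held the sodium leak channel complex, which is a separate channel. Of these 38 genes, called partners here, none had an unadjusted p under 0.05 by limma, where 7.95% of all clusters had, and the smallest p was 0.0638. Their median difference was 0.02, with 26 above 0 and 12 below, from -0.09 to 0.18. The 4 fibroblast growth factor homologous factors, which bind sodium channel tails, had a median of 0.04, and the 4 scaffold genes of the axon initial segment, which hold sodium channels in place, 0.03. The 8 genes of calmodulin, calcium-binding proteins and calmodulin-dependent kinase II, which regulate calcium channels, had a median of -0.0016. The 6 active zone partners, which tether calcium channels to vesicles, had a median of 0.04. The 3 genes of the RGK family, small GTP-binding proteins that restrain calcium channels, had a median of -0.05, and the 4 genes of the sodium leak channel complex 0.04. The highest median was that of the 3 STAC adaptors, which bind L-type channels, at 0.17, with 95% intervals reaching from -0.11 to 0.38 at their widest.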

How the data were processed

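The authors amplified and labelled cDNA from the total RNA of each mouse, hybridised it to 1 Affymetrix mouse gene array and deposited intensities, summarised per transcript cluster and normalized with PLIER and a GC-based background correction in Affymetrix Power Tools 1.12.0. The deposited intensities are linear, from 3e-05 to 26317. The genome build of the array annotation is not given in the sources used here. The 12 arrays limit the precision.

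Log2 of the intensity plus 16 was compared with limma 3.58.1 in R 4.3.3 (lmFit, eBayes, two-sided, no filter); the methods name limma without its scale. P-values were Benjamini-Hochberg adjusted over all clusters. Exact permutation tests used all 924 assignments, whose smallest p is 0.00216. Correlations used 100000 permutations (scipy 1.17.1, Python 3.11.15). The scripts were tested on simulated data.

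The members and lists were chosen with earlier results of these data known, and the marker correlations and the detailed intensities of Scn4b, Cacna2d3 and Scn2b after their values were seen. Otherwise intensities are detailed for members with an unadjusted p under 0.05 and for the brightest gene of each class; partners are named under the same threshold, except Gria1 to Gria4, named as the receptor that the gamma proteins bind. All 35 symbols are current in RefSeq. Clusters that carried a channel symbol together with any other symbol (3) were not used. Groups came from the sample labels. RNA was extracted in matched pairs, whose members the labels do not name. Settings tried besides were untransformed intensities, 1 as the added value, filters, other normalizations, a variance trend, array weights, a replicate block and each array left out.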

Additional observations from a re-analysis of the deposited data

Results flagged for a closer look

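In 3 of the 70 groups of 6 mice examined (35 genes in 2 groups), 1 mouse lay far from the other 5 by Dixon's criterion, which chance meets in about 1 in 20 groups. Cacna1h was lowest in lactating mouse 1, at 880 where the others were between 977 and 1016. Cacna1i was highest in virgin mouse 1, at 749.7 where the others were between 638 and 667. Scn7a was highest in virgin mouse 5, at 384 where the others were between 295 and 325.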

How the results depend on the processing

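Cacng1 was lower in lactating mice with an unadjusted p under 0.05 in all 23 settings run, from -0.163 to -0.122 with each mouse left out. The count of channel genes called was 1 to 2 with each mouse left out; the second gene was Cacna1s without lactating 1 or virgin 5, Scn4b without lactating 2, Cacna1i (higher) without virgin 1 and Scn11a without virgin 3. Class counts were then 0 to 1 for Cav1, Cav3, Nav pore and Nav beta subunits, and Scn4b ranged from -0.36 to -0.16. Of the 34 genes not called, 22 changed sign in at least 1 setting, so no direction is read from them. The partner count was 1 after median subtraction (Stac), 2 with array weights (Cabp1 and Stac) and 0 to 2 with each mouse left out; these genes are named outside the rule. Over all clusters 2828 were called, 1643 of the 17778 above the median intensity, and 1864 to 4058 with each mouse left out, the lowest without lactating 3. Of these calls 41.0% were higher in lactating mice, against 55.2% on linear intensities, 52.2% after quantile normalization, 67.1% after median subtraction, 54.3% after cyclic loess and 69.5% above the median intensity. Same-numbered mice correlated above 0.1 in their residuals for only 2 of 6 numbers, so the numbers were not taken as pairs; with the replicate number as a block 3194 clusters, 1 channel gene (Cacng1, p = 0.0233 by limma) and 2 partners (Stac and Stac2) were called. No value reversed where it had been called. The cause of these changes was not tested.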
